A study of Mus musculus with 9 samples.

Results

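The erythroid and haem synthesis genes measured here were Alas2, Hba-a1, Hbb-b1, Slc4a1, Klf1, Epb42, Fech, Urod and Gata1, 9 genes chosen by name. Every array probe carrying one of these names, or an older synonym, was taken, which gave 15 of the 41174 probes on the array. The array as a whole named 27669 genes or transcripts. The cells came from prostates of BL6 mice and were stained with antibodies and separated by fluorescence-activated cell sorting. Marker-positive cells, which the labels call stem cells, had the surface phenotype Lin-CD44+CD133+Sca-1+CD117+ and were measured on 3 arrays. Marker-negative cells, called non-stem cells, were Lin-CD44-CD133-Sca-1-CD117- and were measured on 6 arrays. Both fractions were therefore depleted of cells bearing lineage markers, and the labels do not list the antibodies of that lineage stain. Sample RNA was amplified and labelled with Cy5, and Universal Mouse Reference RNA from Stratagene was labelled with Cy3 on every array, with no dye swap. All values below are log2 ratios of Cy5 over Cy3 unless another scale is named. The labels do not say whether arrays of a group came from separate mice, so p-values here measure only how far these arrays spread, which could be a technical spread.

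Red blood cells carry oxygen on haemoglobin, a tetramer of alpha and beta globin chains that each hold a haem group. Haem synthesis begins in the mitochondrion with aminolevulinate synthase, of which Alas2 encodes the erythroid form and Alas1 the form found in most cells. Later steps include uroporphyrinogen decarboxylase, the product of Urod, and ferrochelatase, the product of Fech, which inserts iron into the ring. Hba-a1 and Hbb-b1 encode adult alpha and beta globin chains. Slc4a1 encodes the band 3 anion exchanger and Epb42 protein 4.2, both parts of the red cell membrane. Gata1 and Klf1 encode transcription factors of erythroid precursors that bind GATA and CACC motifs. Young red cells that have lost the nucleus still hold globin and Alas2 transcripts.

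The promoters of the 3 genes whose probes differed most between the fractions are shown because GATA and CACC motifs are the known binding letters of Gata1 and Klf1. Each line gives the 250 bases before the RefSeq transcript start in build GRCm38.p6, 5′ to 3′ on the strand of the gene. Capitals mark GATAA or its reverse complement TTATC, and CACCC or its reverse complement GGGTG. The Alas2 window is chrX:150547167-150547416 on the plus strand, the Hba-a1 window is chr11:32283422-32283671 on the plus strand, and the Hbb-bt window is chr7:103813924-103814173 on the minus strand. RefSeq gives the accession of the Hbb-b1 probes to Hbb-bt, a beta globin gene of the BL6 haplotype.
Alas2: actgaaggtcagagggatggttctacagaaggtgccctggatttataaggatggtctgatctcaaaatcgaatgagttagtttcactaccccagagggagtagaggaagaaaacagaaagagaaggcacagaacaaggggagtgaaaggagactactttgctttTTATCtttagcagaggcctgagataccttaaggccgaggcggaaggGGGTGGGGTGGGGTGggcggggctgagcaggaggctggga
Hba-a1: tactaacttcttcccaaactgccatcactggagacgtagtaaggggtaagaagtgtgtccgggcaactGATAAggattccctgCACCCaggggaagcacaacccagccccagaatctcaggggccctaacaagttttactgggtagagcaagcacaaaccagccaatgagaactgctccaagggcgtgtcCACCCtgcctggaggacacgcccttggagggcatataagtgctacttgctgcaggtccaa
Hbb-bt: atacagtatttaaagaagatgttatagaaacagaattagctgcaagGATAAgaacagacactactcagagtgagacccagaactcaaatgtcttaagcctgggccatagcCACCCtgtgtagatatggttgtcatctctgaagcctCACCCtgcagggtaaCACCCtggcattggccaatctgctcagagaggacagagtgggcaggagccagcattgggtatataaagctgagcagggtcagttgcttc
Each of these windows held 1 GATAA match, and they held 3, 2 and 3 CACCC matches in the order shown, with adjacent matches in Alas2 that do not overlap. Of the other members in the promoter table, Klf1 held 1 match of each kind, Epb42 held 1 GATAA match and no CACCC match, Gata1 held 2 CACCC matches and Urod held neither. Over all 32851 mouse promoters of the table, the same rule found GATAA in 22.6%, CACCC in 52.0% and both in 10.1%. A match describes letters and not a bound site. With Hbb-bt standing for Hbb-b1, 7 of the 9 members were matched to that table, which did not list Slc4a1 or Fech.

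Transcripts of alpha globin, beta globin and Alas2 were lower in marker-positive than in marker-negative cells, while the remaining members did not pass the test in either direction. A probe was tested where 3 or more arrays had a Cy5 signal that the scanner software called well above background, which held for 12 member probes. Of these 12 probes, 5 were called lower and 0 higher by limma's moderated test at an adjusted p of 0.05. Over all 28334 tested probes, 1.99% were called lower and 1.48% higher. The 5 probes belonged to Alas2, Hba-a1 and Hbb-b1, and probes of the same gene are not separate results. The members were chosen with earlier results of these data known, so the counts and shares given here describe them and are not a test. Groups did not overlap, with every marker-positive array below every marker-negative array, for 7 of the 12 member probes against 6.78% of all tested probes, and the reverse held for 0 against 4.82%. Differences were below 0 for 10 of the 12 against 52.6% of all tested probes. With each gene represented by its brightest tested probe, 2 of the 7 tested member genes were called lower, Alas2 and Hba-a1, and 0 higher, against 1.67% and 1.57% of 19850 genes. Klf1 and Epb42, with 3 probes between them, were too dim to be tested. The plot of member probes by array shows these patterns. In sorted bulk RNA, fewer cells of a type and less RNA per cell cannot be told apart.

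**Figure D1:**
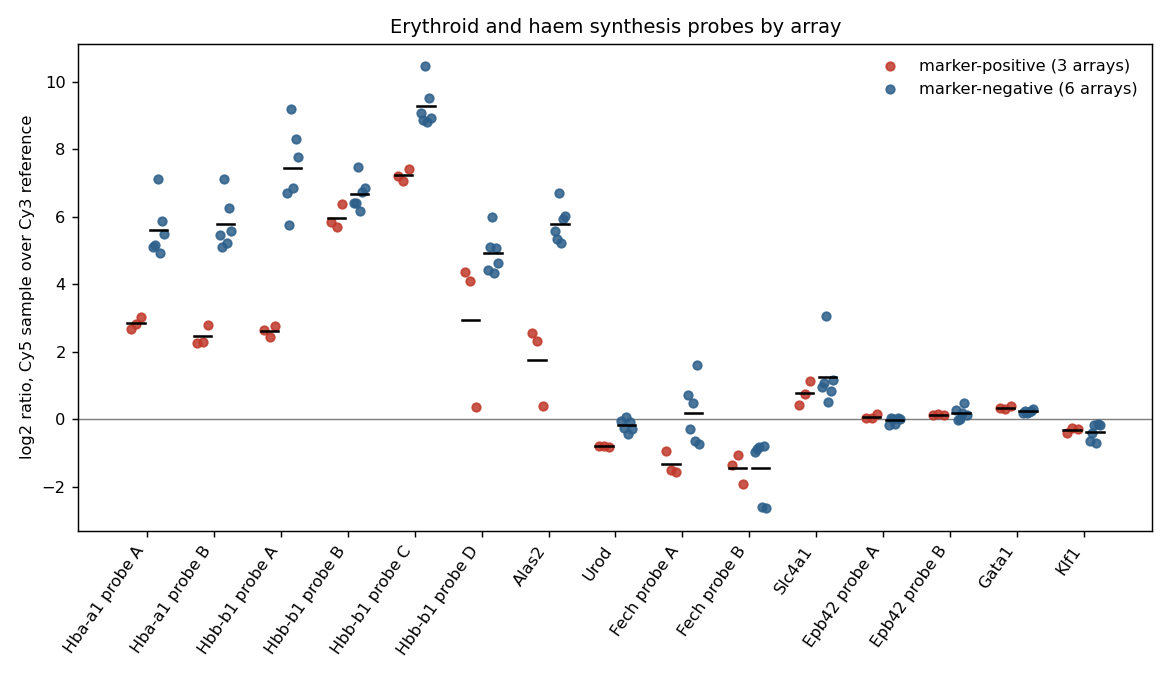
Log2 ratio of Cy5 sample over Cy3 reference on each array (y axis) for the 15 member probes (x axis), with 1 point per array and a black bar at the group mean. Marker-positive points lie below all marker-negative points for Alas2, both Hba-a1 probes, Hbb-b1 probes A and C, Fech probe A and Urod. Both Epb42 probes and Klf1 were not well above background on most or all arrays.

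Hba-a1 was read by a pair of probes at mm7 positions chr11:32235785-32235966 (probe A) and chr11:32235937-32235996 (probe B). Their listed positions span 182 and 60 bases and overlap by 30, which does not show how many bases the probes themselves share. The file listed positions for probes only, so exons were not assigned. The neighbouring gene Hba-a2 encodes alpha globin too, and the 300-base promoter windows of the copies share an identical stretch of 297 bases. A promoter match does not show whether probes separate the transcripts. Probe sequences were not used, so whether these probes separate the copies was not tested. Hba-a1 probe B read 2.26, 2.30 and 2.81 in the marker-positive replicates, in order. On the 6 marker-negative arrays its lowest value was 5.10, its median 5.53 and its highest 7.13. All marker-positive arrays were low and the groups were separated by more than the whole marker-positive range. The means were 2.45 ± 0.31 (SD, n = 3) and 5.80 ± 0.77 (SD, n = 6), a log2 difference of -3.34 (SE 0.43), or 10.2-fold lower, with a limma adjusted p of 0.00447. Hba-a1 probe A gave a smaller log2 difference of -2.78 (SE 0.45, limma adjusted p 0.0119), from 2.69, 2.82 and 3.02 against 4.92 to 7.13. Within the slides that carried both groups, the probe B difference was -3.22 on slide 1 and -2.87 on slide 2. With slide as a fixed block it was -3.02 and the limma adjusted p was 0.0828.

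Hbb-b1 was read by 4 probes of chromosome 7, minus strand, at mm7 positions chr7:99864621-99864680 (probe A), chr7:99864335-99864394 (probe B), chr7:99864305-99864363 (probe C) and chr7:99863416-99863476 (probe D). By listed position probes B and C share 29 bases, and probes A and D also list an accession of Hbb-b2, so beta globin copies were not separated. Probe A read 2.65, 2.43 and 2.76 on the marker-positive arrays. Its lowest, median and highest marker-negative values were 5.77, 7.32 and 9.21. The groups lay far apart, and the marker-negative spread was the widest of any member probe, with an SD of 1.24 (n = 6). Its log2 difference was -4.83 (SE 0.65), or 28.4-fold lower, with a limma adjusted p of 0.00557. Within slides 1 and 2 it was -4.06 and -3.89, and with slide as a fixed block it was -3.96 with a limma adjusted p of 0.0643.

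Probe C of Hbb-b1 read 7.21, 7.06 and 7.43 on the marker-positive arrays, and from 8.82 to 10.47, with a median of 9.0, on the marker-negative arrays. The groups were again apart, by a log2 difference of -2.04 (SE 0.36, 4.13-fold, limma adjusted p 0.0177). Without marker-positive replicate 1 or 2 the calls of probe C and of Hba-a1 probe A were lost, and Alas2, Hba-a1 probe B and Hbb-b1 probe A were still called. Over all tested probes, the share called lower fell from 1.99% to 0.607% without replicate 1 and to 0.561% without replicate 2. With slide as a fixed block probe C differed by -1.82 (limma adjusted p 0.173), and no Hbb-b1 probe was then called. That setting called 0.169% of all tested probes lower. Probe B, which overlaps probe C, read 5.84, 5.71 and 6.38 against 6.17 to 7.47. Those groups overlapped, and the log2 difference of -0.70 (SE 0.30) did not pass the test, with a limma adjusted p of 0.237.

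Hbb-b1 probe D represented the gene in counts of genes, as the brightest of the 4 by the mean of both channels. In Cy5 alone probe C was brighter on all 9 arrays, and a choice by Cy5 would have counted Hbb-b1 as called lower. Its ratios on marker-positive replicates 1 and 2 were 4.36 and 4.11, inside the marker-negative range of 4.33 to 5.99 or just below it, and replicate 3 stood apart at 0.38. The log2 difference of -1.98 (SE 0.79, limma adjusted p 0.207) did not pass the test, and without marker-positive replicate 3 it was -0.69. On that array probe D had a Cy5 spot intensity of 89.6 and a Cy3 intensity of 88.9, while probes B and C of the same gene had Cy5 intensities of 3236 and 7245. When the tested probes of each gene were averaged instead, Hbb-b1 was called lower too, with a log2 difference of -2.39 and a limma adjusted p of 0.0141.

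Alas2 was read by a single probe at mm7 chrX:145329125-145329184, plus strand. It read 2.55, 2.33 and 0.40 in marker-positive replicates 1, 2 and 3, and the signal on replicate 3 was not well above background. Marker-negative arrays ran from 5.24 to 6.71, with a median of 5.75, and were all well above background. The lowest marker-negative array thus lay far above the highest marker-positive one. The means of 1.76 ± 1.18 (SD, n = 3) and 5.80 ± 0.54 (SD, n = 6) differed by -4.04 (SE 0.51), or 16.5-fold, with a limma adjusted p of 0.00419. Within slides 1 and 2 the log2 difference was -3.02 and -2.96, with slide as a fixed block it was -2.98 (limma adjusted p 0.048), and without marker-positive replicate 3 it was -3.36.

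Spot intensities show this separation before any normalization. In Cy5, Alas2 had intensities of 962, 746 and 70.6 on the marker-positive arrays and from 8972 to 27343 on the marker-negative arrays. Hba-a1 probe B had 3683, 3687 and 969 against 52376 to 264095. Hbb-b1 probe C had 65211, 47752 and 7245 against 447144 to 722101. All 3 probes were thus dimmer on every marker-positive array than on any marker-negative array, and no member probe was marked as saturated. Globin Cy5 signal was well above background on all marker-positive arrays.

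The Cy3 signal of the common reference also differed between the groups at these probes, although the same reference RNA was named for every array. Normalized Cy3 signal was lower on marker-positive arrays by 1.66 log2 units for Alas2, 3.02 and 2.19 for Hba-a1 probes A and B, and 0.97, 3.95, 2.23 and 4.58 for Hbb-b1 probes A to D. The value of probe D includes marker-positive replicate 3, with a Cy3 intensity of 88.9 against 869 and 1303 on replicates 1 and 2. For Urod, Slc4a1 and Fech probe A the Cy3 difference was -0.02, -0.01 and -0.01. Over all tested probes the central 95% of Cy3 differences ran from -0.19 to 0.18. Of the probes whose Cy5 signal was lower by more than 3 log2 units, 162 in number, the median Cy3 difference was -0.07. The central 95% of those Cy3 differences ran from -2.36 to 0.27. In raw intensity, Hba-a1 probe A had Cy3 values of 319, 304 and 269 on the marker-positive arrays and from 711 to 3939 on the marker-negative arrays. A ratio taken against a reference signal that moves with the sample is smaller than the change in the sample channel. The plot of reference against sample signal shows both channels for each array, and the cause of the Cy3 difference was not tested.

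**Figure D2:**
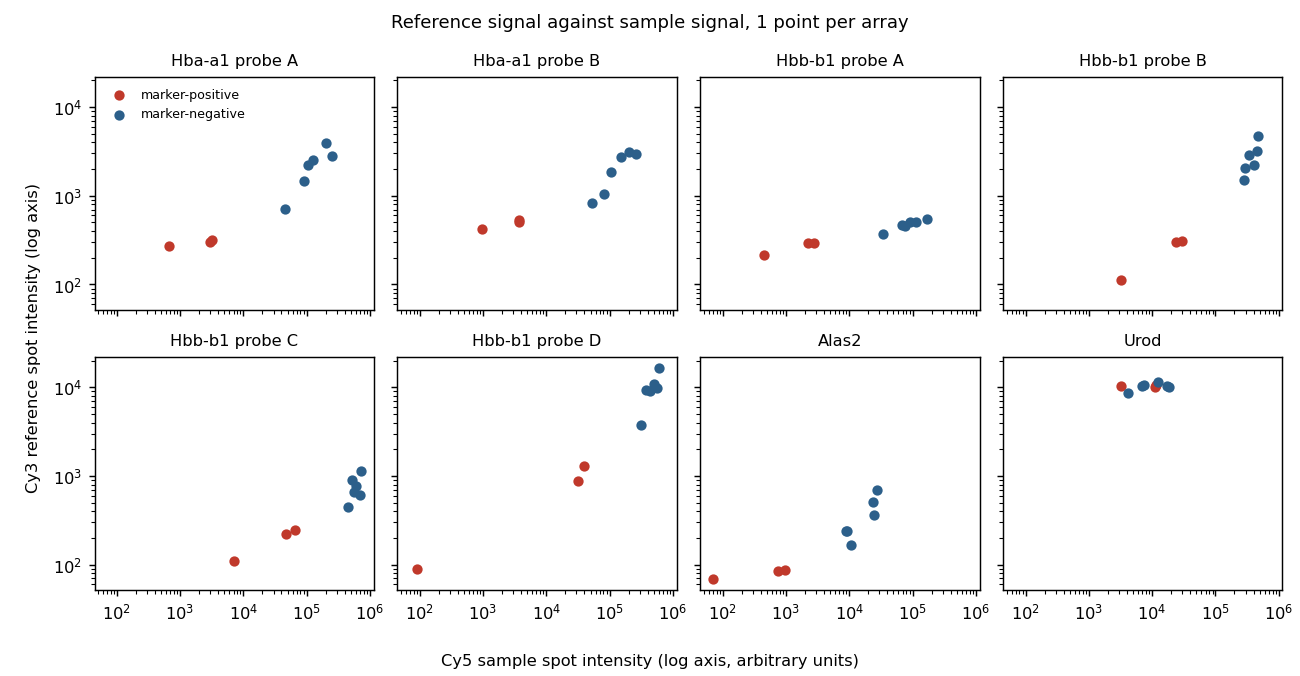
Cy3 reference spot intensity (y axis, log scale) against Cy5 sample spot intensity (x axis, log scale) for Alas2, the 6 globin probes and Urod, with 1 point per array, red for the 3 marker-positive and blue for the 6 marker-negative arrays. For Alas2 and the globin probes, Cy3 and Cy5 signals were both higher on every marker-negative array than on any marker-positive array. Within the marker-negative group the order of arrays was not always the same in both channels. Urod kept a Cy3 intensity between 8536 and 11512 throughout.

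With the Cy5 channel taken alone and quantile normalized between arrays, all 6 globin probes and Alas2 were called lower, 7 member probes in all, against 1.8% of tested probes, and 0 were called higher, against 1.39%. The log2 differences were then -5.46 for Alas2 (SE 0.76, limma adjusted p 0.00633), -5.99 and -5.72 for Hba-a1 probes A and B, and between -6.51 and -4.35 for the 4 Hbb-b1 probes. The -6.51 was that of probe D (SE 1.21), which had a Cy5 intensity of 89.6 on marker-positive replicate 3 against 31647 and 38830 on replicates 1 and 2. Probe B of Hbb-b1, whose ratio did not pass the test, differed by -4.86 in Cy5 alone (SE 0.34, limma adjusted p 0.000376). The probes of Urod, Fech, Slc4a1 and Gata1 differed by nearly the same amount on both scales.

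**Figure D3:**
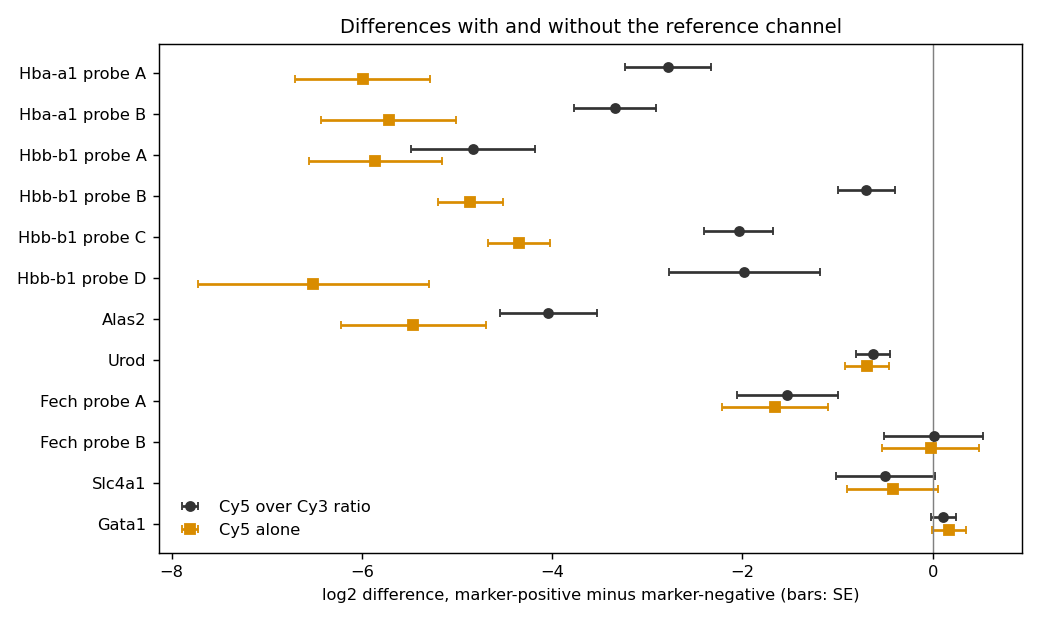
Log2 difference of marker-positive minus marker-negative arrays (x axis, bars are SE) for the 12 tested member probes, from Cy5 over Cy3 ratios (black circles) and from Cy5 alone (orange squares). The Alas2 and globin probes lie further from 0 in Cy5 alone, with Hbb-b1 probe B at -0.70 by ratio and -4.86 by Cy5.

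The other haem synthesis members were lower in part without passing the test. Urod, at mm7 chr4:116366684-116366743, read -0.79, -0.78 and -0.83 on the marker-positive arrays and from -0.43 to 0.06, with a median of -0.17, on the marker-negative arrays. Its groups did not overlap, yet the log2 difference of -0.63 (SE 0.18) had a limma adjusted p of 0.0993. Fech had a pair of probes that disagreed. Fech probe A, at mm7 chr18:64846091-64846150, read -0.94, -1.51 and -1.56 against -0.74 to 1.61, a log2 difference of -1.53 (SE 0.53, limma adjusted p 0.149) with no overlap. Fech probe B, at mm7 chr18:64844967-64845026, read -1.34, -1.05 and -1.93 against -2.64 to -0.80, a log2 difference of 0.01 (SE 0.52, limma adjusted p 0.993). Ferrochelatase is needed in every cell that makes haem, and its Cy5 signal was well above background on all 6 marker-negative arrays with both probes.

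Slc4a1, at mm7 chr11:102457981-102458040, read 0.43, 0.74 and 1.15 on the marker-positive arrays and had a lowest value of 0.51, a median of 1.02 and a highest of 3.07 on the marker-negative arrays. The groups overlapped and the log2 difference of -0.50 (SE 0.52) did not pass the test, with a limma adjusted p of 0.658. Without marker-negative replicate 3, the array at 3.07, it was -0.14. Both Epb42 probes, at mm7 chr2:120759820-120759879 and chr2:120759553-120759612, were not well above background in Cy5 on any of the 9 arrays, so neither group had a measured level.

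The erythroid transcription factors among the members were dim in both fractions. Gata1, at mm7 chrX:6392873-6392932 and printed in 10 spots, read 0.33, 0.30 and 0.39 against 0.19 to 0.30, where 5 outlying spots over all arrays had been left out. It was well above background on 3 of 3 marker-positive and 5 of 6 marker-negative arrays, and its log2 difference of 0.11 (SE 0.13, limma adjusted p 0.711) did not pass the test. Klf1, at mm7 chr8:83491092-83491151, was well above background on 1 of 3 marker-positive and 0 of 6 marker-negative arrays. In a fit of all 41174 probes, Klf1 differed by 0.05 (SE 0.16, limma adjusted p 0.93). Every globin probe, Alas2, Urod, Slc4a1 and both Fech probes were well above background on all 6 marker-negative arrays. Gata1 was so on 5 of 6, and Klf1 and both Epb42 probes on 0 of 6.

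In log2 ratios, marker-negative replicate 3 was the highest of its group for all 7 Alas2 and globin probes, and for 9 of the 15 member probes. In Cy5 spot intensity it was highest for both Hba-a1 probes and Hbb-b1 probe A. Replicate 5 was brighter for Alas2 (27343 against 23481) and for Hbb-b1 probes B, C and D. Replicate 3 also had the lowest share of probes well above background among the marker-negative arrays, 47.5%. Leaving it out kept all 5 calls, against 1.74% of all tested probes called lower. Alas2 and Hba-a1 probe B varied together over the 9 arrays, with a Pearson r of 0.92 that carries no p, since the arrays share a reference and fall into the groups compared.

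In the authors' deposited table, the signed fold of stem over non-stem cells was -16.0 for Alas2, -6.32 and -9.37 for Hba-a1 probes A and B, and -27.1 for Hbb-b1 probe A. The authors' deposited table gave these 4 probes adjusted p-values of 0.00881, 0.0458, 0.0122 and 0.00368. The folds of Hbb-b1 probes B, C and D in the authors' deposited table were -1.47, -3.81 and -3.49, with adjusted p-values of 0.822, 0.29 and 0.236. Hbb-b1 probe C is the member whose call differed between the authors' deposited table and the fit here. The log2 column of the authors' deposited table had the opposite sign to its signed fold in all 43379 rows, so only the fold was read for direction.

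Other genes of the red cell pathways were read from lists of markers and enzymes, as shown in the plot of pathway genes. Over all 19850 tested genes the median log2 difference was -0.01. Among 5 globin genes, Hba-a1 was called lower, 0 were called higher and the median was -1.98. That median is the value of Hbb-b1 probe D, which was -0.69 without marker-positive replicate 3. The embryonic globin Hbb-y read 0.58, 0.63 and 1.67 against 1.03 to 5.44, a log2 difference of -2.06 (SE 0.86, limma adjusted p 0.226). Hba-x and Hbb-bh1 of the same list differed by -0.04 (SE 0.13, limma adjusted p 0.918) and -0.97 (SE 0.43, limma adjusted p 0.248). The second Hbb-bh1 probe gave 0.05. Among 9 haem synthesis genes, Alas2 was called lower, 0 were called higher and the median was -0.63, with 7 of the 9 below 0. Uros, which encodes uroporphyrinogen III synthase, had a log2 difference of -2.33 (SE 0.64, limma adjusted p 0.085). Alas1 had one of 1.34 in the other direction (SE 0.47, limma adjusted p 0.157).

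**Figure D4:**
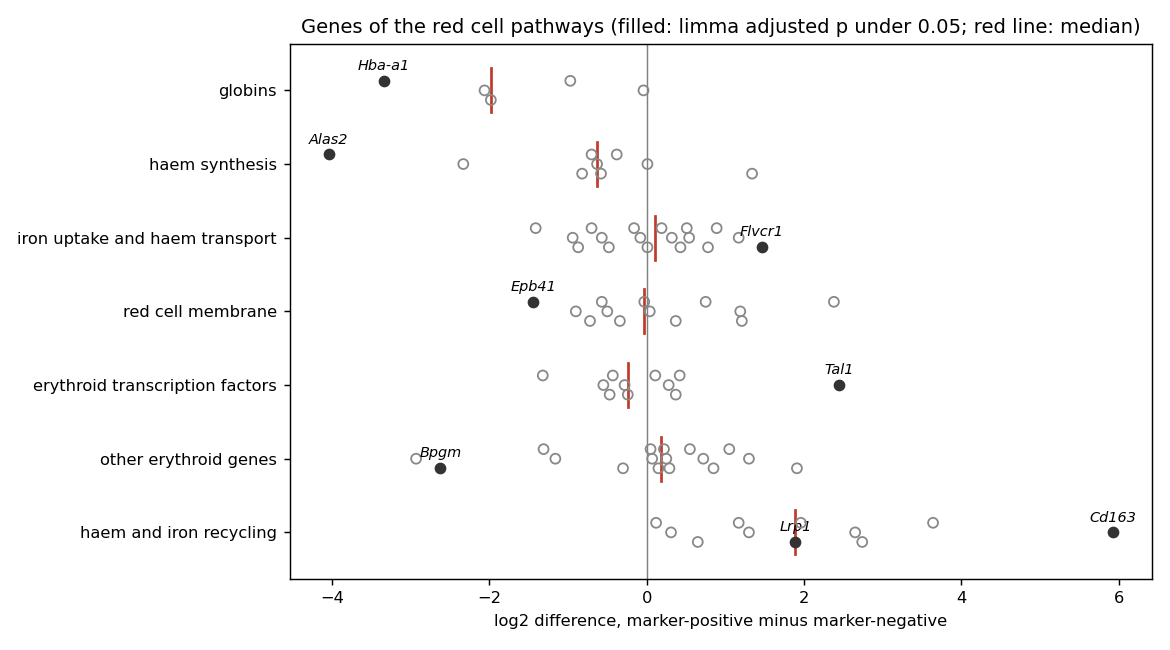
Log2 difference of marker-positive minus marker-negative arrays (x axis) for the tested genes of 7 lists (y axis), with 1 point per gene at its brightest tested probe. One called gene is not shown. Filled and named points passed limma's test at an adjusted p of 0.05, and open points did not. Red lines mark list medians, which run from -1.98 for the globins to 1.89 for haem and iron recycling. The globin median is the value of Hbb-b1 probe D, for which marker-positive replicate 3 stood apart.

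Among 18 genes of iron uptake and haem transport, 1 was called higher and 0 lower, with a median of 0.10. The one was Flvcr1, a haem exporter, with a log2 difference of 1.46 (SE 0.28, limma adjusted p 0.0246), and its second probe gave 0.28 and did not pass. Of the red cell membrane list, 13 of 18 genes were tested, 1 was called lower and 0 higher, with a median of -0.03. Epb41, which encodes protein 4.1, read 0.73, 0.77 and 0.55 against 1.75 to 2.58, a log2 difference of -1.44 (SE 0.29, limma adjusted p 0.0287). Its other probes gave -1.78 and -0.18 and did not pass. Epb42, Rhag and Tmod1 were among those too dim to be tested.

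The transcription factor list had 11 of 12 genes tested, with 1 called higher, 0 lower and a median of -0.24. Tal1, a factor of blood stem cells, the erythroid and mast cell lineages and endothelium, read 1.15, 2.80 and 1.52 against -1.46 to 0.71, a log2 difference of 2.45 (SE 0.57, limma adjusted p 0.0479). That call was kept under 9 of 21 alternative settings, and with 1 of the 9 arrays left out, marker-negative replicate 1. Its log2 difference was 0.44 within slide 1 and 3.70 within slide 2. A list of 22 other genes expressed in erythroid cells had 18 tested, with 2 called lower, 0 higher and a median of 0.18. Of the genes called lower, Bpgm, the bisphosphoglycerate mutase of red cells, had a log2 difference of -2.62 (SE 0.61, limma adjusted p 0.0494). It was called under 8 of 22 alternatives, and its difference was -1.61 and -1.17 within slides 1 and 2. The second Bpgm probe gave -2.37 and did not pass. Ahsp and Trim58 of that list were not matched to a probe by symbol.

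Markers of other cell types moved with the same comparison. Of 10 genes of T and natural killer cells, 8 were called lower and 0 higher in marker-positive cells, with a median of -4.81, and their mean log2 ratio ran from 0.33 to 1.0 on marker-positive and from 2.90 to 5.74 on marker-negative arrays. Gzma and Gzmb, granzymes of cytotoxic lymphocytes, differed by -6.65 and -5.12 (limma adjusted p 0.00567 and 7.29e-05), and Gzma was well above background on 1 of 3 marker-positive arrays, so its difference is set largely against background. Of 12 prostate epithelium genes, 3 were called lower and 1 higher, with mean ratios of 2.76, 2.95 and 0.53 against 2.79 to 3.95. Secretory Msmb and Pbsn had log2 differences of -5.24 and -1.99, Tmprss2 one of -2.28, and basal Trp63 one of 2.02. The second Tmprss2 probe gave -2.06 and did not pass. Within the marker-negative arrays the T and natural killer cell mean was highest on replicate 6, at 5.74, and the globin list mean on replicate 3, at 4.17. The part of these cell types in the globin and Alas2 differences was not tested.

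Genes called in the other direction included those of macrophages, mast cells and endothelium. Of 10 macrophage genes 3 were called higher and 0 lower, with array means of 3.46 to 4.47 against 0.50 to 3.24. Of 11 tested mast cell and eosinophil genes 4 were called higher and 0 lower, with means of 3.02 to 3.44 against 0.24 to 2.25, and marker-negative replicate 3 had that 2.25. Of 8 endothelial genes 2 were called higher and 0 lower, with means of 2.87, 4.30 and 0.78 against 0.12 to 0.94, so that these groups overlapped. Of 8 tested platelet and megakaryocyte genes 1 was called higher, Pf4, by 5.92 (SE 0.73, limma adjusted p 0.00358), and 0 lower. Macrophages take up aged red cells and recycle their haem, and of 11 haem and iron recycling genes 2 were called higher and 0 lower, with a median of 1.89. Cd163, the receptor for haemoglobin bound to haptoglobin, had a signal called above background in no marker-negative array and its normalized Cy5 signal was at least 102-fold higher in marker-positive cells, against the lowest Cy5 signal counted as above background. The limma fit of its ratios gave an adjusted p of 9.86e-06. Lrp1, a receptor for haem bound to haemopexin, was higher by 1.89 (SE 0.43, limma adjusted p 0.0466), and its second probe gave 1.87 and did not pass. Their part in the results on the members was not tested.

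Of 16081 named genes with a value on every array, those most like Alas2 over the 9 arrays were Srsf5, Azgp1, 2700046G09Rik, Spink8 and Defb1, with Pearson r from 0.978 to 0.988. Those most like Hba-a1 were H2-D4, H4c14, Nlrc3, H4c4 and H4c6, with r from 0.978 to 0.986, and the histone H4 genes among them are near-identical copies that the probes may not separate. All 10 were higher in marker-negative cells, a direction that follows from choosing them by likeness to Alas2 and Hba-a1. None belongs to the red cell lists. These correlations describe 9 arrays that share a reference and fall into a pair of groups.

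Cy5 signal was well above background for 45.5% to 69.5% of probes per array, and the number of arrays limits precision. Marker-positive replicate 3 had that lowest share, and its ratios correlated with those of its own group at 0.582 and 0.609 and with marker-negative arrays at up to 0.677. Without it all 5 member probes were still called lower, against 2.73% of all tested probes. CD117 is encoded by Kit, which was higher in marker-positive cells by 3.45 log2 units (SE 0.78, limma adjusted p 0.046).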

How the data were processed

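Of each of the 9 Agilent arrays, the deposited scanner file holds raw spot intensity values. Per the labels, PicoPure RNA was amplified with MessageAmp II and labelled with Quick Amp. The scans were read by Agilent Feature Extraction, 10.7.3.1 per the file headers, while the submitters' processing notes name 10.7. Probe positions are of build mm7 per the file headers. A table that the authors deposited lists, for every spot, a log2 difference, a raw and an adjusted p-value, a signed fold and further score columns of limma. How its values were normalized was not given in the sources used here.

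Spot means were background-corrected with limma 3.58.1 in R 4.3.3 (normexp on the median local background, offset 50) and normalized by loess within arrays, with control and outlier spots given no weight. Outlier spots were dropped and spots of a probe averaged. Probes with Cy5 signal called well above background by 3 or more arrays were tested, marker-positive against marker-negative, by limma with trend and robust estimation, two-sided, with Benjamini-Hochberg adjustment over 28334 probes and a threshold of 0.05. The labels carry no replicate numbers, so those used here follow deposit order and pair nothing. Names came from RefSeq by accession or symbol, and 8440 kept the file's name. In simulated data of 28280 probes for this comparison, 90% of 100 probes lowered by 4 log2 units (log2 -4) and 49% of 100 lowered less (log2 -2) were recovered, and 4.79% of 146 calls were false.

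The members, the 13 lists and the tests were chosen with earlier results of these data known. Named genes were the 9 members, up to 4 called genes per list with the smallest adjusted p, and the 5 genes most like Alas2 and Hba-a1. A few listed genes that the rule would name are not reported here. Uros, Alas1, Hbb-y, Hba-x and Hbb-bh1 were added after their values were seen. Alternatives covered background correction, normalization, the dim-probe filter, the variance model, array weights, slides, the probe rule and each array left out. The Cy3 channel was examined after seeing the data. Probe sequences, exons and proteins were not used here. Plots were drawn with matplotlib 3.10.9.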

Additional observations from a re-analysis of the deposited data

Results flagged for a closer look

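Of 50 features tested for an outlying array among the 6 marker-negative arrays, 5 had one, where chance gives about 1 in 20. Slc4a1 read 3.07 on marker-negative replicate 3, while the other 5 arrays reached at most 1.17. Cpa3, a mast cell protease, read 5.29 on the same array and at most 0.33 on the others. Nlrc3 read 2.49 there and at most 1.79 elsewhere. Cd163 read 0.58 on marker-negative replicate 1 and at most 0.05 on the others, none of which was well above background. Tmprss2 read 4.97 on marker-negative replicate 4, below all the others, the nearest of which read 6.06.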

How the results depend on the processing

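Alas2 was called lower under all 20 alternatives that tested it, with log2 differences from -5.46 to -2.98, and from -4.44 to -3.36 with an array left out, and limma adjusted p-values from 0.000371 to 0.048. Its untested differences within slides 1 and 2 were -3.02 and -2.96. Hba-a1 was called lower under 21 of 22 alternatives, and with slide as a fixed block its difference of -3.02 had a limma adjusted p of 0.0828, against 0.000294 as the lowest of its alternatives. The count of member genes called lower, 2 by the brightest probe, was 1 with slide as a fixed block, where Alas2 was called, and 1 when probes had to be detected in both channels on all arrays, where Alas2 was not tested. With the probes of a gene averaged it was 3. The count called higher was 0 under every alternative run. Among member probes, 5 were called lower, against 1.99% of all tested probes. The same share follows each count below in brackets. The count was 7 with Cy5 alone (1.8%), 4 with the scanner's processed signals (2.2%) and 8 with array weights (12.2%). It was 3 without marker-positive replicate 1 (0.607%) or 2 (0.561%), and 1 with slide as a fixed block (0.169%). Fech, near 0, turned to -0.02 with Cy5 alone and -0.76 with its probes averaged, and ranged from -0.22 to 0.26 with an array left out. Klf1 ranged from -0.01 to 0.10 with an array left out. Epb42 probe B was 0.05 with Cy5 alone and ranged from -0.08 to 0.03 with an array left out. None of these values passed the test, and where no construction shows it, the cause was not tested. With each of the 9 arrays left out in turn, the calls of Cd163 and Pf4 held in 9 of 9, that of Flvcr1 in 5, of Epb41 in 4, of Pbsn in 3, of Cpa3 in 2, and of Tal1, Bpgm, Lrp1, Kit and Trp63 in 1, with the direction kept. Scaling between arrays after loess leaves ratios as they were by construction. No paired analysis was possible because the labels carry no replicate numbers, so slide, which the files give, was the block that was tried.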
